A study of Mus musculus with 6 samples.

Results

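Chemokines and their receptors were followed in mouse liver RNA-seq after acute ethanol exposure. The members were all rows of the gene table whose symbol names a CC, CXC, CX3C or XC chemokine, a receptor of these classes or an atypical chemokine receptor. The 4 rows annotated as pseudogenes were left out. This gave 61 of the 28880 genes in the table, with 40 ligands, 17 receptors and 4 atypical receptors. All libraries came from livers of male wild-type C57BL/6J mice, 6 to 8 weeks old. The 3 acute ethanol mice had fasted for 12 h, had then received 50% (v/v) ethanol once by oral gavage at 6 g/kg, and were sampled 24 h later. The 3 control mice are labelled only as kept without ethanol, and the labels do not say whether they were fasted or given a vehicle. Fasting and gavage therefore cannot be told apart from ethanol in this comparison. The model is a single high dose in young males of 1 strain.

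Chemokines are small secreted proteins that guide leukocytes along gradients. They bind G protein-coupled receptors, which signal through inhibitory G proteins, phospholipase C-beta and phosphoinositide 3-kinases to move the actin cytoskeleton. Atypical receptors bind the same ligands without this signalling and take them out of the tissue fluid. In the liver, CXCR2 and its ligands are known for drawing neutrophils from blood, CCR2 and CCL2 for recruiting monocytes, and CXCR3 and CXCR6 for placing T cells, NK cells and NKT cells in the sinusoids. Ligands are made by hepatocytes, Kupffer cells, endothelial cells and stellate cells, whereas most of the receptors are carried by leukocytes. In whole-liver RNA, fewer cells of a type and less RNA per cell cannot be told apart.

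Totals ran from 60514417 to 74210869 counts per library. Low counts piled up at multiples of 4, with 38.6% to 42.8% of the low counts of the libraries at such values, so that 1 sequenced fragment appears to add about 4 counts. A member was called detected when a library held more than 3 counts. The TMM factors, which scale libraries by the bulk of their genes, were 0.768 to 0.836 in ethanol and 1.26 to 1.27 in controls, and levels below are CPM, counts relative to the library total after this scaling, unless named otherwise. Ethanol replicate 3 stood apart from the other ethanol libraries on the second principal component (-88.7 against 33.4 and 51.7). Hepatocyte markers were high in every library, at a summed 125784 to 128717 CPM in ethanol and 67924 to 80043 CPM in controls, with 2 of 8 called higher (Apoa1 and Cyp2e1). Another 3 were higher by adjusted p alone, and all 8 had a positive log2 fold change (median 0.60). Of 5 cholangiocyte markers 1 was higher (Sox9). With library size alone as the scale, the median log2 fold change of all tested genes moved from -0.04 to -0.71 and the share of calls that were lower moved from 57.0% to 86.4%.

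Of the 61 members, 57 were detected and 36 had enough counts to be tested by edgeR's quasi-likelihood test over 16717 genes. The test called 3 members higher (Cxcl1, Cxcr2 and Ccl6) and 4 lower in ethanol, of which Ccr2, Ccl2 and Cxcr6 are described here. A call required the adjusted p to be under 0.05 and the log2 fold change to exceed 1 in size. Over all genes tested, 10.4% were called higher and 13.8% lower, and the shares among the members lie near this background. The median log2 fold change of the tested members was -0.10, beside -0.04 over all genes tested. Of the 21 detected members that were not tested, 9 exceeded 12 counts in some library and 12 did not. Among the 23 tested ligands 2 rose and 1 fell, and among the 9 tested receptors 1 rose and 3 fell. None of the 4 atypical receptors was called by edgeR or by DESeq2, and 1 of them (Ackr3) had an unadjusted p under 0.05 in edgeR. With library size alone Ackr4 was called lower. Another 3 ligands passed the adjusted p alone, with smaller changes, and all were lower (Cxcl12, Cxcl16 and Cxcl11). By adjusted p alone 21.5% of all genes were lower.

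**Figure D1:**
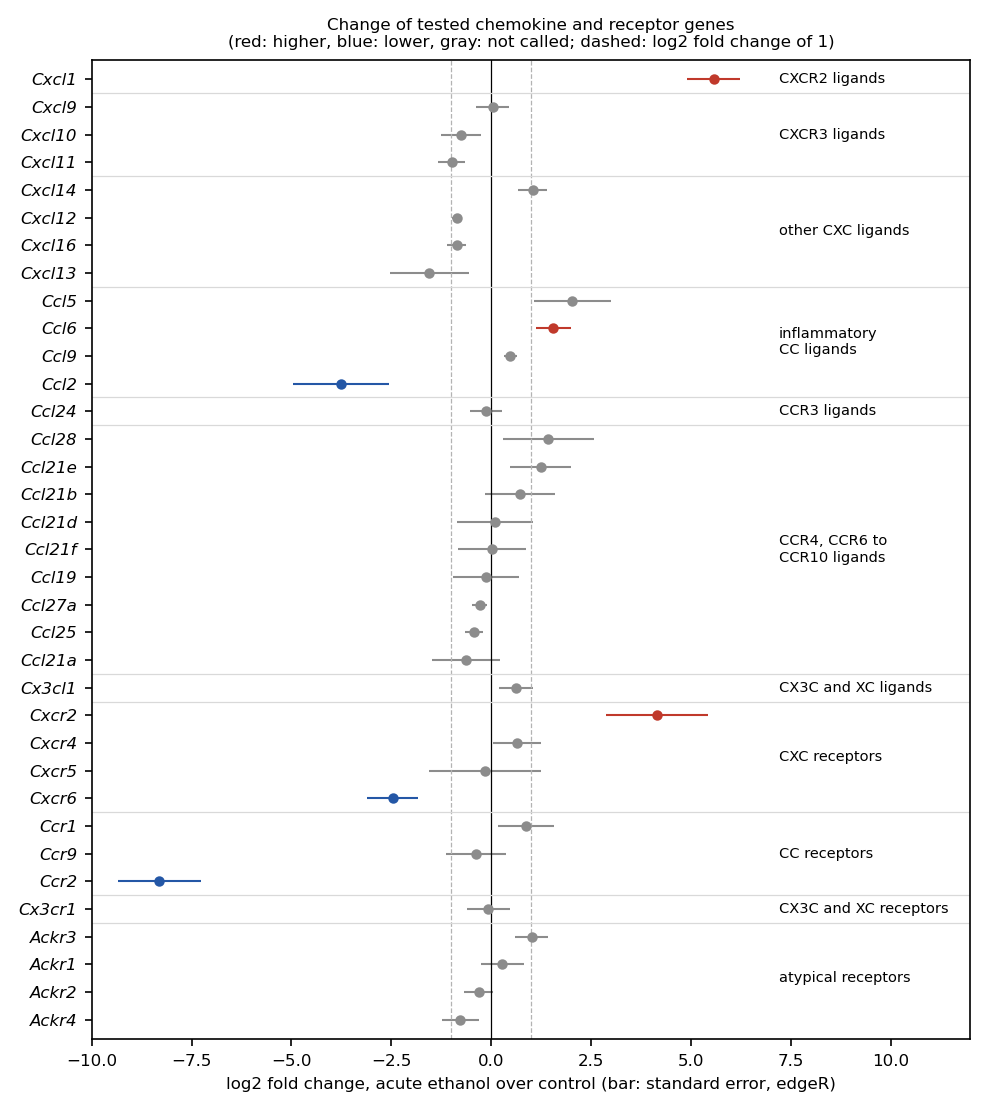
Log2 fold change of 35 tested members, acute ethanol over control, with its edgeR standard error (bars), grouped by role. Red marks the 3 members called higher, blue 3 called lower and gray the others. The fitted value of Ccr2 depends on the prior count, because it had no count in ethanol.

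Cxcl1, a CXCR2 ligand that attracts neutrophils, had the largest fitted rise of the tested members. It lies in a cluster of CXCR2 ligand genes on chromosome 5, which the deposited table places at chr5:90907219-91053797 in the order Cxcl5, Ppbp, Cxcl3, Cxcl15, Cxcl1 and Cxcl2. The sequences just before the start sites of Cxcl1 and its neighbour Cxcl2 are shown because both genes stood higher in ethanol and share a binding-site motif for NF-kB, the transcription factor of inflammatory gene induction. Each line gives the 120 bases before the RefSeq start (GRCm38.p6, plus strand, chr5:90891125-90891244 for Cxcl1 and chr5:90903779-90903898 for Cxcl2), with the motif GGGAATTTCC in capitals.
Cxcl1: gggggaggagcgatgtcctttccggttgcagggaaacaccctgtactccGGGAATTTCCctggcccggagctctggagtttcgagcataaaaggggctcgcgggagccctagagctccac
Cxcl2: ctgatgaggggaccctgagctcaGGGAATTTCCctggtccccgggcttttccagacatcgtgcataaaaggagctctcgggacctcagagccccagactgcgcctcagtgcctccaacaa
The motif begins 71 bases before the start in Cxcl1 and 97 bases before it in Cxcl2. These letters, searched on both strands without allowance for overlap with other motifs, were found in 29 of 32851 RefSeq promoter windows of 300 bases (0.0883%). Of the members, 43 had a window, and 4 held the motif (Cxcl1, Cxcl2, Cxcl3 and Ccr3). Of these, Cxcl3 was not detected, and Ccr3 was at 0 in ethanol and had 7, 4 and 12 counts in controls. The looser kB consensus, which allows other bases at several positions, was in 8.46% of all windows and in 20.4% of the members' windows. Among the members that held it, Cxcl10, Ackr2, Ccr1, Ccl27a and Ccl9 did not pass the test, and Ccl20 had no count in any library. The letters were chosen after these sequences were seen, and Cxcl2 is shown although it was not tested. A match describes the sequence only, and whether the factor binds there was not tested.

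Cxcl1 had 4602, 3850 and 15838 counts in ethanol replicates 1, 2 and 3, against 235, 253 and 272 in the controls. The groups did not overlap, and ethanol replicate 3 held more than the other ethanol libraries together. On the scaled level this was 144 ± 127 CPM against 3.04 ± 0.47 (SD, n = 3 each), a log2 fold change of 5.57 with a standard error of 0.66 (adjusted p = 0.000947, edgeR). Without ethanol replicate 3 it was 4.57 (adjusted p = 2.34e-06, edgeR), and the call held with each library left out. Per transcript length, Cxcl1 was at 30.9, 26.2 and 111 FPKM (fragments relative to transcript length and library size, the authors' values) in ethanol and at 1.57, 2.08 and 2.07 FPKM in controls.

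The remaining CXCR2 ligands were far lower. Cxcl2, a close relative of Cxcl1 that macrophages make in inflammation, had 4, 40 and 39 counts in ethanol and 0, 3 and 5 in controls. Every ethanol library lay above every control on the CPM scale. On the FPKM scale ethanol replicate 1 (0.0207) lay below control replicates 2 and 3 (0.0218 and 0.0275). The counts of Cxcl2 were too few for edgeR's filter. DESeq2, which tested it, put the change at 3.83 on the log2 scale (adjusted p = 0.00634), and edgeR without a filter at 3.78 (adjusted p = 0.0670). The ratio of the pooled levels was 15.1, with a 95% counting interval of 3.74 to 135 (exact binomial, on fragments). Cxcl5 had no count in ethanol and 0, 4 and 12 in controls, Cxcl15 was seen only in control replicate 3 with 5 counts, and Cxcl3 was not detected. Ppbp, a platelet precursor of further CXCR2 ligands whose symbol lies outside the rule and whose gene lies in the same cluster, rose by a log2 fold change of 2.34, from 4, 9 and 11 counts to 32, 14 and 39 (adjusted p = 0.031, edgeR).

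Cxcr2, the receptor of these ligands and the main chemokine receptor of neutrophils, was also higher in ethanol. Its counts were 20, 42 and 66 against 0, 0 and 10, without overlap between the groups. The ratio of the pooled levels was 18.6, with a 95% counting interval of 5.95 to 201, and the fitted log2 fold change was 4.16 (SE 1.27, adjusted p = 0.0343, edgeR). The call was lost in 5 of 6 fits that left out a library, in which adjusted p reached 0.0958. The fitted change ran from 3.56 to 8.68 over these fits, highest without control replicate 3, the only control with a count. Cxcr1, the other receptor of this branch, was not detected.

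Of 11 neutrophil markers, 5 were tested and 4 rose (S100a8, S100a9, Retnlg and Mmp8). Their summed level was 3.20 to 15.3 CPM in ethanol and 1.21 to 1.93 CPM in controls, highest in ethanol replicate 3, the library in which Cxcl1 and Cxcr2 were also highest. S100a8 had 33, 40 and 160 counts in ethanol and 0, 0 and 4 in controls. DESeq2 called 5 of 8 neutrophil markers higher and 0 lower. Ltf was among them (log2 fold change 6.47, adjusted p = 0.00131, DESeq2), with 9, 9 and 16 counts in ethanol and none in controls. Of the defining markers, Ly6g had 9 counts in ethanol replicate 3 and none elsewhere, and Csf3r was not called. Mpo and Elane had too few counts to be tested. Both were at 0 in all ethanol libraries, with 0, 4 and 0 counts of Mpo and 6, 7 and 10 of Elane in controls, so that Elane went the other way. The part of neutrophil number in the Cxcr2 result was not tested.

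**Figure D2:**
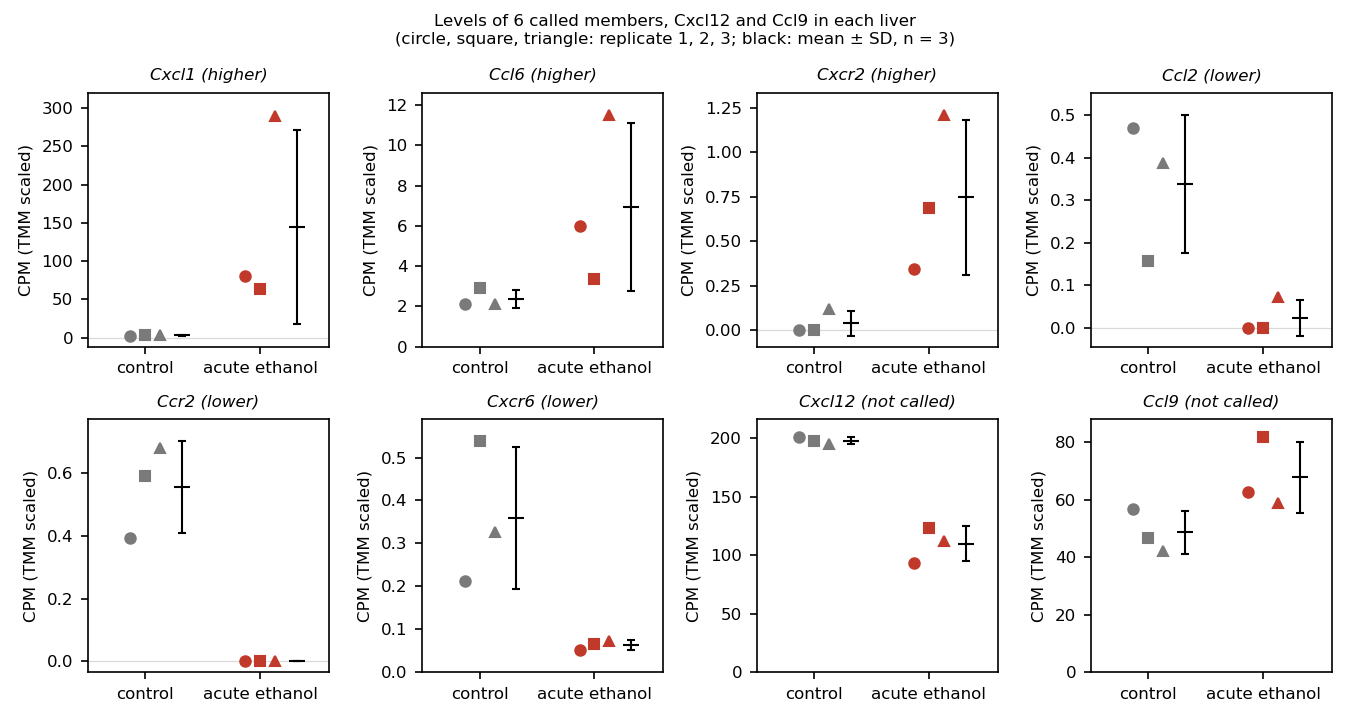
CPM of 6 called members and of Cxcl12 and Ccl9 in each of the 6 livers (gray, control; red, acute ethanol; symbols mark replicates 1 to 3), with mean ± SD in black. Ethanol replicate 3 carries the highest Cxcl1, Ccl6 and Cxcr2, and Cxcl12 falls into a high control group and a low ethanol group.

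Interferon-induced CXCR3 ligands, which attract activated T and NK cells, did not rise with Cxcl1. Cxcl9 had 391, 129 and 166 counts in ethanol and 371, 285 and 325 in controls, with ethanol replicate 1 above and the others below the controls on the CPM scale (log2 fold change 0.04, SE 0.41, adjusted p = 0.949, edgeR). Its sign turned under 7 of 17 alternatives, one of them the fit without ethanol replicate 1 (-0.59). Cxcl10 had 82, 83 and 20 counts against 168, 106 and 173, with a log2 fold change of -0.74 (SE 0.50, adjusted p = 0.265, edgeR). Cxcl11, annotated in the table as a loss-of-function gene, had 96, 98 and 53 counts against 310, 246 and 157 and passed the adjusted p alone (-0.99, SE 0.33, adjusted p = 0.0475, edgeR). It was called lower by DESeq2 and under several other settings, among them upper quartile factors and the fit without control replicate 3. Cxcl10 and Cxcl11 overlap Art3 on the opposite strand, and whether the counting used strand is not stated. Their receptor Cxcr3 was not tested for want of counts, at 0 in every ethanol library and at 16, 8 and 19 counts in controls. The pooled control level of Cxcr3 was 2.46-fold a floor of 12 counts (3 fragments) over the ethanol group, with the counting error of the controls left out. DESeq2 called it lower (adjusted p = 0.00666), as did edgeR without a filter (adjusted p = 0.0286).

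Cxcl12, the constitutive ligand of Cxcr4 and Ackr3 that retains cells in tissue, was the most abundant ligand in control liver per transcript length. It stood at 93.8, 124 and 112 CPM in ethanol and at 201, 197 and 195 CPM in controls, so that the controls lay within a narrow band well above all ethanol libraries. The log2 fold change was -0.85 (SE 0.12, adjusted p = 0.00201, edgeR), which is 1.80-fold lower and short of the required size for a call. The same sign was found under all 17 alternatives, at adjusted p up to 0.0136, and it was called lower with library size alone (-1.51) and with limma on the FPKM values (-1.44 and -1.52). Of 8 sinusoidal endothelial markers, all tested, edgeR called 3 lower (Kdr, Oit3 and Fcgr2b) and 1 higher (Lyve1), and their summed level was 98.9 to 170 CPM in ethanol against 138 to 152 CPM in controls. Of 8 stellate cell markers, all tested, 2 were lower (Col1a1 and Col3a1) and another 3 were higher by adjusted p alone. Their summed levels were 141 to 172 CPM in ethanol against 130 to 163 CPM in controls. The part of these cells in the Cxcl12 result was not tested. Cxcr4 had 34, 19 and 41 counts in ethanol and 25, 14 and 49 in controls, with overlapping groups (0.66, SE 0.60, adjusted p = 0.407, edgeR). Ackr3, which scavenges Cxcl12, had 147, 191 and 139 counts against 57, 126 and 148 and lay higher in each ethanol library on the CPM scale (1.02, SE 0.41, adjusted p = 0.0833, edgeR).

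Of the remaining CXC ligands, Cxcl16, a membrane-bound ligand of Cxcr6, had 160, 129 and 118 counts in ethanol and 350, 288 and 432 in controls (-0.85, SE 0.24, adjusted p = 0.0244, edgeR). With a library left out its adjusted p ran from 0.0314 to 0.101, and with the replicate number as a block it was 0.0628 (edgeR). Cxcl16 was called lower with library size alone (-1.52) and with limma on log2(FPKM + 0.1) (-1.38). It overlaps Zmynd15 on the opposite strand, where ethanol libraries held 30 to 34 counts and controls 252 to 360. Cxcl14, which many epithelia make without stimulation, had 103, 74 and 150 counts against 83, 82 and 68, higher in every ethanol library on the CPM scale (1.04, SE 0.36, adjusted p = 0.0520, edgeR). DESeq2 called it higher, whereas its change was 0.36 with library size alone and 0.13 and 0.27 with limma on the FPKM values. Cxcl13, the B cell chemokine, had 0, 19 and 20 counts against 72, 31 and 67 (adjusted p = 0.244, edgeR), and its receptor Cxcr5 had 11, 0 and 9 against 16, 17 and 0 (adjusted p = 0.940, edgeR). Beside them, 1 of 5 tested B cell markers was lower (Ms4a1), and the 5 summed to 2.91 to 4.50 CPM in ethanol and 4.70 to 6.34 CPM in controls. Cxcl17 was seen in control replicate 3 alone, with 10 counts.

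Cxcr6, which keeps NKT and T cells in the sinusoids, fell to 3, 4 and 4 counts in ethanol from 20, 41 and 27 in controls. The ratio of the pooled levels was 5.49-fold lower, with a 95% counting interval of 1.51 to 26.3, and the fitted log2 fold change was -2.46 (SE 0.64, adjusted p = 0.0187, edgeR). The call was lost in 4 of 6 fits that left out a library, with adjusted p up to 0.0922. The fitted change lay between -2.06 and -2.73 over these fits. Cxcr6 lies within Fyco1 on the opposite strand, at 1116 to 1152 counts in ethanol and 2575 to 3497 in controls. The summed level of T and NK cell markers was 0.785 to 1.54 CPM in ethanol and 2.85 to 3.73 CPM in controls, and of 12 markers 7 were tested and 1 (Cd4) fell by edgeR, while DESeq2 called Cd4 and Cd8a lower. Cd8a and Ncr1 were at 0 in every ethanol library. The part of these cells in the Cxcr6 and Cxcr3 values was not tested.

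**Figure D3:**
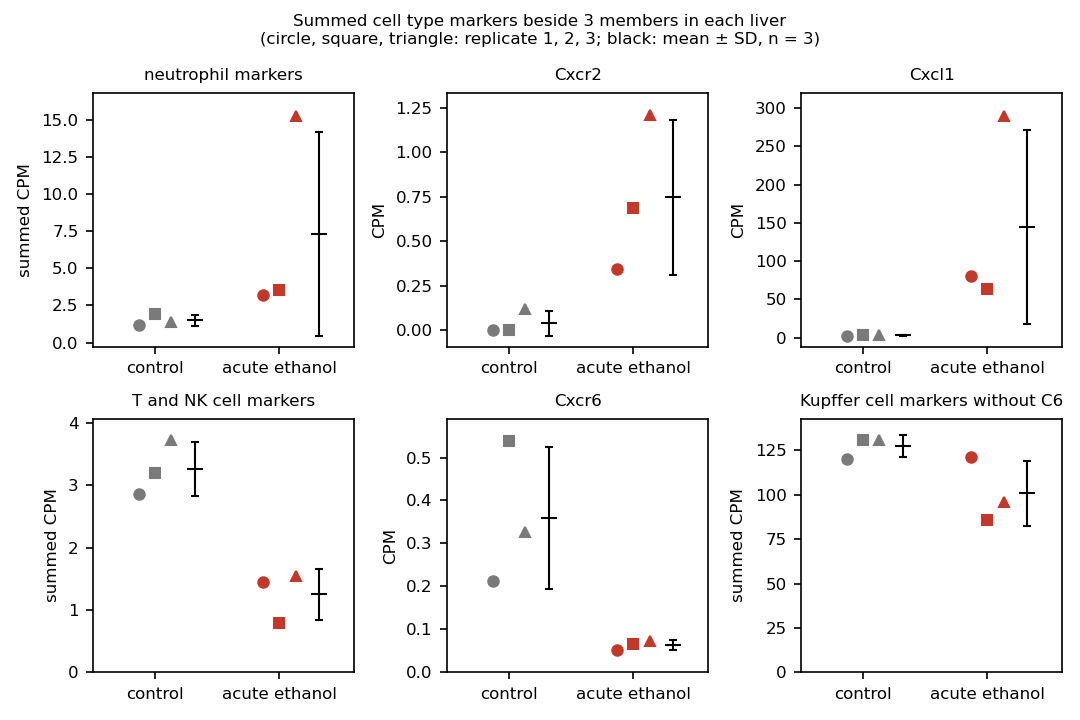
Summed CPM of neutrophil markers, T and NK cell markers, and Kupffer cell markers without C6 beside the CPM of Cxcr2, Cxcl1 and Cxcr6 in each liver, with mean ± SD in black. Neutrophil markers, Cxcr2 and Cxcl1 are all highest in ethanol replicate 3, T and NK cell markers lie at 0.785 to 1.54 in ethanol against 2.85 to 3.73 in controls, and Kupffer cell markers without C6 lie at 85.6 to 121 against 120 to 131.

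Among the inflammatory CC ligands, the genes moved in different directions. Ccl2, the ligand of Ccr2 that recruits monocytes, fell. It had 0, 0 and 4 counts in ethanol and 44, 12 and 32 in controls, so that the ethanol level rests on about 1 fragment. The ratio of the pooled levels was 15.1, with a 95% counting interval of 2.44 to 623, and the fit gave a log2 fold change of -3.75 (SE 1.20, adjusted p = 0.0399, edgeR). The call was lost in 5 of 6 fits that left out a library, with adjusted p up to 0.129. The fitted change ran from -3.18 to -7.66 over these fits, lowest without ethanol replicate 3 (adjusted p = 0.00695, edgeR), the only ethanol library with a count.

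Ccl6, a CCR1 ligand of myeloid cells found in rodents, rose from 199, 221 and 173 counts to 346, 204 and 629. In CPM this was 6.01, 3.33 and 11.5 in ethanol against 2.12, 2.90 and 2.10 in controls, with the groups apart by a narrow margin. The log2 fold change was 1.55 (SE 0.44, adjusted p = 0.0258, edgeR). It was 0.99 without ethanol replicate 3, and 5 of 6 fits that left out a library lost the call, at adjusted p up to 0.0932. Its neighbour Ccl9, another CCR1 ligand and the most abundant CC chemokine here, had 62.7, 82.0 and 59.0 CPM in ethanol against 56.9, 46.8 and 42.3 in controls, again without overlap. Its log2 fold change was 0.48 (SE 0.17, adjusted p = 0.0545, edgeR), and the sign turned with library size alone (-0.18) and on the FPKM scale.

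Ccl5, which T cells and NK cells release, had 37, 4 and 89 counts against 14, 19 and 14. Ethanol replicate 2 lay below the controls and the others above them (2.03, SE 0.96, adjusted p = 0.128, edgeR). Without ethanol replicate 2, Ccl5 was called higher. Ccl3, Ccl4, Ccl7 and Ccl8 were detected at no more than 19 counts in any library and were not tested. Of the eotaxins, which draw eosinophils through Ccr3, Ccl24 overlapped between the groups (-0.12, SE 0.40, adjusted p = 0.826, edgeR) and Ccl11 had 4 counts in 1 library of each group.

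Ccr2, the receptor of Ccl2 on inflammatory monocytes, fell. It had no count in any ethanol library and 37, 45 and 56 in controls. Its pooled control level was 7.89-fold a floor of 12 counts over the ethanol group, with the counting error of the controls left out. Ccr2 was called lower (adjusted p = 0.00298, edgeR), and the call held with each library left out.

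Beside this receptor, Kupffer cell markers summed to 269 to 418 CPM in ethanol and 284 to 407 CPM in controls, of which C6, a complement gene, made up 57.7% to 73.1%. Without C6, a split made after the values were seen, the sums were 121, 85.6 and 95.6 CPM in ethanol and 120, 131 and 131 CPM in controls, so that ethanol replicates 2 and 3 lay below all controls. Of 10 markers 0 were called by edgeR or DESeq2. In edgeR 4 had an unadjusted p under 0.05, all of them lower, and Csf1r (-0.71, adjusted p = 0.0215) and Clec4f (-0.37, adjusted p = 0.0471) passed the adjusted p alone. Monocyte markers other than Fn1, a hepatocyte product as well, summed to 24.2 to 31.4 CPM against 25.6 to 35.0 CPM. Of 8 monocyte markers 5 were tested and 1 (Plac8) rose by edgeR. DESeq2 called Plac8 higher and F13a1 lower, the latter at 0 in every ethanol library and at 0, 23 and 20 counts in controls (adjusted p = 0.0379). Ly6c2, the defining marker of inflammatory monocytes, had 15, 21 and 0 counts in ethanol and 8, 18 and 24 in controls. The part of monocyte or Kupffer cell number in the Ccr2 result was not tested.

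Cxcr6 and Ccr2 lie in a cluster of receptor genes on chromosome 9, in which the table places Ccr9, Cxcr6, Xcr1, Ccr1, Ccr1l1, Ccr3 and Ccr2 in this order at chr9:123507504-123913594. Within it, Ccr1 did not share this pattern, with 11, 24 and 7 counts in ethanol and 8, 16 and 8 in controls (0.86, SE 0.70, adjusted p = 0.352, edgeR). Ccr9, the receptor of Ccl25, had 19, 8 and 4 against 14, 28 and 15 (-0.38, SE 0.74, adjusted p = 0.706, edgeR), and overlaps several genes. Ccr3 was at 0 in ethanol and at 7, 4 and 12 counts in controls and was not tested. Its pooled control level was 1.32-fold the same floor. Neither edgeR without a filter (adjusted p = 0.0649) nor DESeq2 (adjusted p = 0.0726) called it lower. Xcr1, which marks cross-presenting dendritic cells, had 7, 0 and 0 against 17, 5 and 36 and was not tested either. Of 6 dendritic cell markers, 5 were tested and edgeR called 0, with 1 (Zbtb46) lower by adjusted p alone and by DESeq2, at summed levels of 3.56 to 6.54 CPM in ethanol and 6.32 to 8.40 CPM in controls. Of the receptors outside this cluster, Ccr4, Ccr7, Ccr10, Cxcr1 and Cxcr3 were too low to be tested. Ccr7, which brings dendritic cells and T cells to lymph nodes, had 4 counts in each ethanol library and 25, 9 and 7 in controls, Ccr10 had 4, 4 and 0 against 8, 0 and 21, and Ccr4 was seen only in control replicate 2, with 13 counts.

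**Figure D4:**
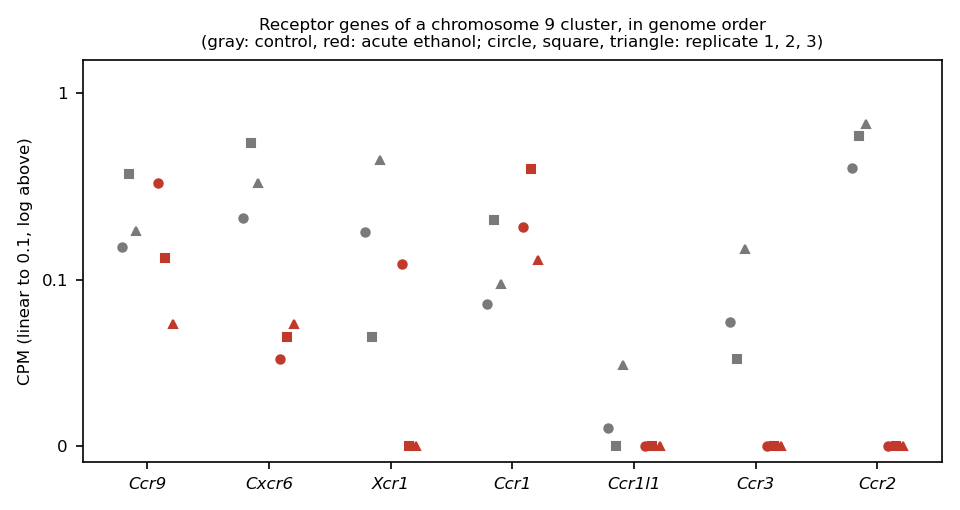
CPM of 7 receptor genes of a chromosome 9 cluster in genome order, on an axis that is linear up to 0.1 and logarithmic above (gray, control; red, acute ethanol; symbols mark replicates 1 to 3). Cxcr6, Ccr3 and Ccr2 separate the groups, whereas Ccr9, Xcr1, Ccr1 and Ccr1l1 overlap; over all genes tested, 31.0% lie below the controls without overlap and 59.0% do not overlap in either direction.

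No ligand of the lymphoid and mucosal receptors was called by edgeR among the 9 tested of 13 members, none had an unadjusted p under 0.05, and DESeq2 called none. With library size alone Ccl25 was called lower. Ccl25, the Ccr9 ligand, had 230, 176 and 235 counts against 527, 358 and 390 (-0.43, SE 0.22, adjusted p = 0.147, edgeR). Ccl27a, a Ccr10 ligand, had 244, 225 and 186 against 464, 347 and 356, which were 3.41 to 4.24 CPM in ethanol and 4.32 to 4.94 CPM in controls (-0.29, SE 0.18, adjusted p = 0.238, edgeR). For Ccl21a, which guides Ccr7-bearing cells into lymphatics, counts were 81, 69 and 14 in ethanol and 23, 160 and 164 in controls, a spread within each group that exceeded the difference (-0.63, SE 0.85, adjusted p = 0.574, edgeR). The genes for Ccl19, Ccl21 and Ccl27 lie together at chr4:41769467-42773993. The Ccl21 copies (Ccl21a, Ccl21b, Ccl21d, Ccl21e and Ccl21f) are near-identical to one another, so reads may be divided among them and their separate values are uncertain, and the same holds within the Ccl27 copies and between Ccl19 and Ccl19-ps2. Ccl22 and Ccl17, ligands of Ccr4, had 4, 0 and 0 against 0, 14 and 18 counts and 4 counts in control replicate 2 alone. Ccl20 had no count in any library.

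Cx3cl1, the membrane-bound ligand of patrolling monocytes, had 38, 45 and 26 counts against 27, 35 and 39 (0.62, SE 0.42, adjusted p = 0.272, edgeR), and its receptor Cx3cr1 had 36, 37 and 11 against 38, 48 and 39 (-0.07, SE 0.53, adjusted p = 0.926, edgeR). Xcl1 had no count in any library. Among the atypical receptors, Ackr2, which clears inflammatory CC chemokines, had 149, 114 and 55 counts against 212, 143 and 218 (-0.31, SE 0.37, adjusted p = 0.519, edgeR). Ackr4, which clears Ccl19, Ccl21 and Ccl25, had 34, 63 and 18 against 98, 73 and 110 (-0.77, SE 0.46, adjusted p = 0.213, edgeR), within Acad11 on the opposite strand. Ackr1, the endothelial Duffy receptor, overlapped between the groups (0.28, SE 0.54, adjusted p = 0.699, edgeR).

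The makeup of chemokine ligand RNA is given here as a description, without a test. Summed per transcript length, the 40 ligands reached 65.3, 69.3 and 147 FPKM in ethanol and 66.1, 66.6 and 65.2 FPKM in controls. FPKM is scaled to library size alone, and the order of the libraries depends on this. Divided by the TMM factors the sums were 84.0, 82.9 and 191 in ethanol against 52.3, 52.9 and 51.9 in controls, all ethanol libraries then lying above all controls. The shares of single ligands are the same on either scale. Cxcl1 made up 47.3%, 37.8% and 75.5% of this sum in ethanol and 2.38%, 3.13% and 3.17% in controls. The share of Cxcl12 was 12.7%, 17.0% and 6.67% in ethanol and 44.0%, 42.7% and 43.0% in controls. The share of Ccl9 was 22.8%, 30.3% and 9.46% in ethanol and 33.5%, 27.2% and 25.1% in controls. Only 8 members had a mean of at least 1 FPKM, all of them ligands. The 21 receptors, atypical ones included, summed to 2.19, 2.12 and 2.07 FPKM in ethanol and 3.19, 3.41 and 4.30 FPKM in controls. Divided by the TMM factors these sums were 2.82, 2.53 and 2.69 against 2.52, 2.71 and 3.42, and the groups overlapped.

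**Figure D5:**
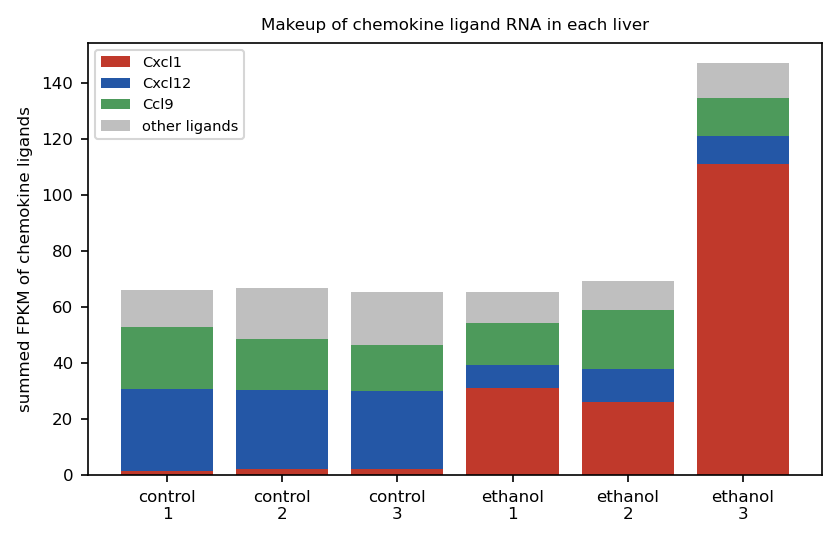
Summed FPKM of the 40 chemokine ligands in each liver, divided into Cxcl1, Cxcl12, Ccl9 and all other ligands. Cxcl1 takes 37.8% to 75.5% of the sum in ethanol and 2.38% to 3.17% in controls, and ethanol replicate 3 has the highest sum (147 FPKM).

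Downstream of the receptors, 61 of 62 listed signalling genes were tested, of which 5 rose and 7 fell (median log2 fold change 0.09), shares near the 10.4% higher and 13.8% lower over all genes. Rgs16, a regulator of G protein signalling that shuts off G proteins behind the receptors, rose from 365, 54 and 108 counts to 9304, 10078 and 9928, a log2 fold change of 6.41 (SE 0.64, adjusted p = 0.000466, edgeR), and its relatives Rgs1 and Rgs2 rose by 2.04 and 1.74. Stat3, which carries cytokine signals, rose by 2.03, and Pik3r1, a regulatory subunit of phosphoinositide 3-kinase, by 1.47. Grk5, a kinase that marks active receptors for arrestin, fell from 1379, 1627 and 1709 counts to 49, 83 and 102 (-3.80, SE 0.32, adjusted p = 0.000245, edgeR). The phospholipases Plcb2 and Plcb3 fell (-2.59 and -1.38), as did the Rac activator Tiam1 (-2.35), the adaptor Crk (-1.28) and the kinase Ptk2b (-1.04). Most of these genes serve many receptors besides those of chemokines.

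Among 9 related genes outside the rule, all tested, 3 rose and 1 fell. The risers besides Ppbp were Ccrl2, a chemerin-binding relative of the receptors (2.09, adjusted p = 0.00933, edgeR), and Mif, a cytokine that also binds Cxcr2 and Cxcr4 (1.09, adjusted p = 0.000528, edgeR), and Cklf fell (-2.79, adjusted p = 0.0477, edgeR). Of 14 cytokines listed as acting upstream of chemokines, without regard to direction, 10 were in the table and 5 were tested. Of these 1 rose (Il10, from 7, 5 and 5 counts to 20, 26 and 32, log2 fold change 2.72, adjusted p = 0.00699, edgeR). Il1b had 37, 62 and 98 counts in ethanol and 74, 145 and 244 in controls (-0.71, SE 0.56, adjusted p = 0.338, edgeR). Tnf had 0, 4 and 12 counts against 4, 5 and 8, and Il6 was seen only in control replicate 1, with 26 counts.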

How the data were processed

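Liver RNA (TRIzol, paired-end reads on an Illumina NovaSeq) was compared between 3 acute ethanol and 3 control libraries, grouped by their labels. The authors deposited whole-number counts per gene, not normalized, and FPKM values beside them. The aligner, counter and strand setting are not given in the sources used here. The submitters' processing notes name GRCm38 and mm10, but only 539 of 27049 shared gene identifiers have the start and end of a GRCm38 annotation, so the build of the deposited coordinates is not settled. They are printed as deposited. Promoters are from RefSeq, GRCm38.p6. The table holds 1 count column that matches no library, which was not used, and columns of the authors' own comparisons, which were not used.

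Counts were analysed in R 4.3.3 with edgeR 4.0.16 (filterByExpr, TMM, quasi-likelihood test, no covariates, Benjamini-Hochberg over all tested genes), with calls limited to adjusted p under 0.05 together with log2 changes of more than 1 in size. Alternatives used DESeq2 1.42.0, limma 3.58.1 on log2(FPKM + 1) or log2(FPKM + 0.1) where the mean FPKM reached 0.1, other scalings and filters, the replicate number as a block, and each library left out. The number of livers limits precision for all genes and depth for the lowest ones, and intervals cover counting error only. Floors cover the counting error of the ethanol group alone, so the folds against them are not strict bounds. The members and lists were chosen with earlier results of these data known. By rule, values per library are given for called members and the 10 members with the highest mean FPKM, and genes of other lists are named where called. Values are also given beyond this rule, for other members such as Ccl25 and Ackr3 and for uncalled genes of other lists such as Il1b. Cxcl2, Cxcr3 and further members with few counts, and marker genes, were named after their values were seen. Some called genes are counted but not reported here.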

Additional observations from a re-analysis of the deposited data

How the results depend on the processing

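The calls of Cxcl1 (17 of 17 alternatives) and Ccr2 (13 of 13 in which it was tested) rested on no single library, whereas Ccl6 lost its call in 9 of 17 alternatives, Cxcr2 in 6 of 13, Ccl2 in 8 of 15 and Cxcr6 in 6 of 15. The 3 members higher became 5 with DESeq2 and 1 with limma at either pseudocount. The 4 members lower became 6 with DESeq2 (Cxcl11 and Cxcr3 added), 9 with library size alone, 0 of 8 tested with a mean FPKM of at least 1, 1 with limma on log2(FPKM + 1), 8 with log2(FPKM + 0.1), 7 with adjusted p alone, and 2 with counts divided by 4, an alternative chosen after seeing the data. With each library left out, 1 to 4 members were higher and 3 to 5 lower. The fewest higher (Cxcl1 alone) came without ethanol replicate 3, control replicate 1 or control replicate 2. With the replicate number as a block 2 members were lower. Same-numbered libraries did not deviate together (correlations of -0.035, -0.021 and -0.017). The numbers thus showed no sign of pairing, which does not settle whether the mice were paired.

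Of the signalling genes, the 5 higher became 8 with the length trend removed, 3 with a mean FPKM of at least 1, 2 with limma on log2(FPKM + 1), 3 with log2(FPKM + 0.1) and 16 with adjusted p alone, and the 7 lower became 17 with library size alone and 15 with limma on log2(FPKM + 0.1). With a library left out, 5 to 6 were higher and 6 to 10 lower. Ccl9 turned to -0.18 with library size alone, -0.18 with limma on log2(FPKM + 1) and -0.19 with log2(FPKM + 0.1). Cxcl9 turned to -0.64 with library size alone, -0.055 with upper quartile factors, -0.068 with a mean FPKM of at least 1, -0.39 and -0.73 with limma, -0.14 with the replicate block and -0.59 without ethanol replicate 1 (-0.59 to 0.34 with each library left out). The cause was not tested. Calls that were lower made up 57.0% of all calls, 80.8% with limma on log2(FPKM + 1) and 86.8% with log2(FPKM + 0.1). Members under about 3 fragments per group cannot show a change at this depth.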
